A study of Drosophila melanogaster with 6 samples.

Results

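Histidine tRNA with the anticodon GTG (His-GTG) was followed as small RNA fragments in adult Drosophila melanogaster males. The tables list read sequences at tRNA genes, and His-GTG was taken as every sequence listed at a gene whose name ends in HisGTG, with a sequence listed at several genes counted once per library. The rule found 5 of the 297 listed genes and 1048 of 199966 tRNA-derived reads, in 52 of 3099 distinct sequences. The name of the gene chose the reads, but His-GTG itself was chosen by its measured level, which was known to be higher in the Dnmt2 mutants of these same libraries, so differences between the genotypes are given as descriptions with no test.

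The study set tRNA fragments of the male body without Dnmt2, and after heat stress, against those of comparison flies. Dnmt2 mutants had the labelled strain w1118; Dnmt2 mutant/Dnmt2 mutant;+/+, and the comparison flies had w1118; +/Dnmt2 mutant;+/+, so all groups carried at least 1 mutant copy and the w1118 background. The labels do not name the allele. The series title calls the comparison flies wild type, whereas each sample label calls them heterozygous, and the sample labels were followed. Both genotypes were sampled untreated at 10 days of age (control), at 10 days after 1 h at 37 °C in a water bath and 5 h at room temperature (heat shock), and at 12 days, 2 days after the same treatment (recovery). Recovery and the extra age cannot be told apart. All RNA came from whole bodies without testis, a mix of somatic tissues, and 200 µg of total RNA was depleted of 2S rRNA and cut at 25 to 70 nt from a gel. Each of the 6 groups had 1 library, so no value has a replicate of its own group. The labels do not say how many flies were pooled or whether the libraries stem from separate cultures. The p-values therefore reflect only how much these libraries vary, which may be technical.

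A tRNA-derived fragment of this kind is made when a ribonuclease cuts the anticodon loop of a mature tRNA, and such cuts are a known response to stress in animals. His-GTG tRNA carries histidine to the ribosome and reads both histidine codons. Its mature form is unusual in having an extra guanosine added ahead of base 1 by a dedicated guanylyltransferase, a mark that histidyl-tRNA synthetase recognises. Its first anticodon base is a G that can be replaced by queuosine, a modified base it shares with Asn-GTT, Asp-GTC and Tyr-GTA tRNAs. Dnmt2 methylates a cytosine at base 38, and its known substrates in flies are the tRNAs Asp-GTC, Val-AAC and Gly-GCC.

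The 5 genes listed the same sequences with the same counts in every library, so copies could not be separated. RefSeq names them tRNA:His-GTG-1-1 to tRNA:His-GTG-1-5 and places all of them on chromosome arm 2R at a length of 72 nt. The first 4 lie close together, with 0, 0 and 1 other genes between neighbours, and the pseudogene tRNA:His-GTG-2-1Psi is next to the fourth. The fifth gene is 1259 genes further along the arm in that table, which is of another build than the deposited files, so no coordinates are given. Sequences of up to 37 nt were also listed at the pseudogene, where 0 reads were its own. A gene of 72 bases was rebuilt from the overlapping reads, with the anticodon at bases 34 to 36. It closed 7 of 7 base pairs in the acceptor stem, 4 of 4 in the D stem, 5 of 5 in the anticodon stem (bases 27 to 31 with 39 to 43) and 5 of 5 in the T stem (bases 48 to 52 with 60 to 64). The anticodon loop therefore runs over bases 32 to 38 and the variable region over bases 44 to 47.

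His-GTG gave 397, 292 and 22 reads in the control, heat shock and recovery libraries of the Dnmt2 mutants, against 48, 169 and 120 reads in those of the heterozygotes. The tRNA-derived reads of these libraries totalled 67477, 37463 and 5113 in mutants and 15336, 46056 and 28521 in heterozygotes. These totals count listed tRNA reads only and are not the sequencing depth. The mutant recovery library was the smallest, and its 22 His-GTG reads limit every value given for it.

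As a share of all tRNA-derived reads, His-GTG took 0.588% (95% Wilson interval 0.533 to 0.649), 0.779% (0.695 to 0.874) and 0.430% (0.284 to 0.651) in mutant control, heat shock and recovery. In heterozygotes it took 0.313% (0.236 to 0.415), 0.367% (0.316 to 0.426) and 0.421% (0.352 to 0.503). The mutant share was the higher one in control and after heat shock. This is the difference for which His-GTG was chosen, so the intervals are no test of it. The recovery shares of the genotypes lay within each other's intervals. Reads carry no molecular identifiers, so these intervals cover counting error only. Among the 48 groups of tRNA reads formed by anticodon, His-GTG ranked 12, 10 and 12 in the mutant libraries and 14, 11 and 17 in the heterozygote libraries.

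**Figure D1:**
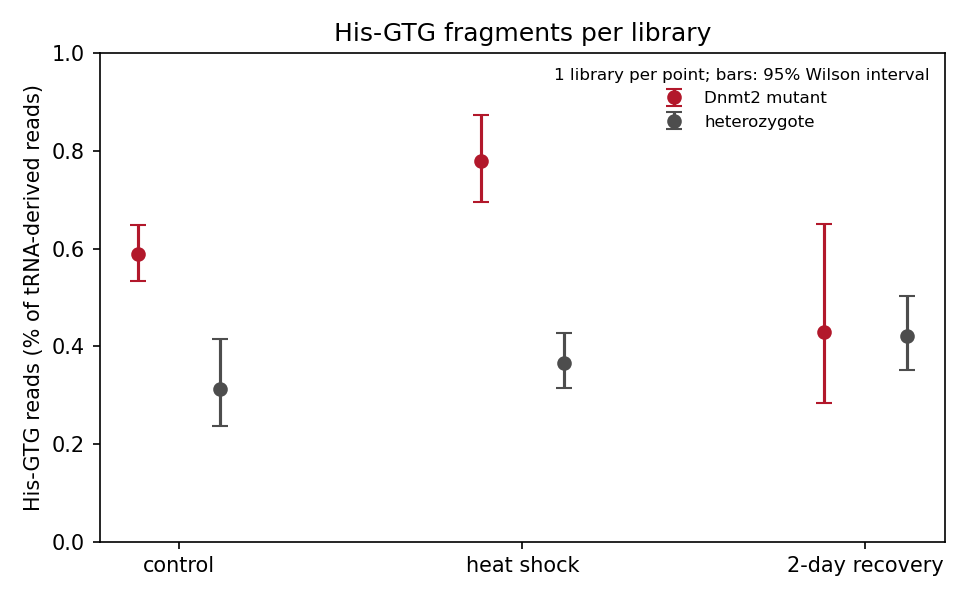
His-GTG reads as a percentage of tRNA-derived reads (y axis) in control, heat shock and recovery (x axis), 1 library per point, with 95% Wilson intervals. The mutant points at 0.588% and 0.779% stand above the heterozygote points at 0.313% and 0.367% in control and heat shock, and the recovery points at 0.430% and 0.421% overlap.

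Scaled with TMM factors, which adjust each library to the bulk of its tRNAs, the level in CPM, a count scaled to the library total, was 7268, 9168 and 4054 in mutant control, heat shock and recovery. It was 3093, 4014 and 2843 CPM in the heterozygote libraries in the same order. Mutants were thus higher in 3 of 3 conditions on this scale, least so in recovery. The log2 ratio of mutant to heterozygote was 1.23 (exact binomial 95% interval 0.80 to 1.70) in control, 1.19 (0.91 to 1.47) after heat shock and 0.51 (-0.22 to 1.18) in recovery. The edgeR model over all 6 libraries, with genotype and condition as terms, put the genotype log2 fold change at 1.02 ± 0.29 (SE), against a median of 0.07 over all 22 tested groups. In that fit 27.3% of the tested groups passed an adjusted p of 0.05 between the genotypes, a share from which nothing is read here because the choice of His-GTG used this contrast. Fewer cells rich in a tRNA and fewer fragments per cell cannot be told apart in whole bodies.

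Heat shock gave a log2 ratio over control of 0.33 (0.11 to 0.56) in mutants and 0.38 (-0.09 to 0.87) in heterozygotes. Both libraries after heat shock were above their control, by a similar ratio. Across genotypes the change was 0.34 ± 0.33 (log2 fold change ± SE) and did not pass (edgeR adjusted p = 0.398), while 31.8% of the tested groups passed in this contrast. The median of all tested groups was -0.39 here and 0.05 with RLE size factors, a different way of scaling libraries. His-GTG stood 0.73 above that median with TMM and 0.75 above it with RLE, under which its own value was 0.80 ± 0.32 (edgeR adjusted p = 0.0510, the lowest of 14 alternatives, which ran up to 0.874).

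In recovery the log2 ratio over control was -0.84 (-1.53 to -0.22) in mutants and -0.12 (-0.62 to 0.39) in heterozygotes. Across genotypes it was -0.43 ± 0.36 and did not pass (edgeR adjusted p = 0.423). By edgeR 0% of the 22 tested groups passed in this contrast, with 1 group at an unadjusted p under 0.05 and 0 calls by DESeq2. Its sign turned to positive with scaling by total counts (0.063) and without the mutant control library (0.15). On the TMM scale recovery was lower than heat shock in both genotypes. The log2 ratio was -1.18 (-1.87 to -0.55) in mutants and -0.50 (-0.85 to -0.15) in heterozygotes. The heterozygote direction depended on the scale. As a share of tRNA-derived reads, recovery minus heat shock was 0.054 percentage points (-0.037 to 0.151) in heterozygotes. In mutants it was -0.349 points (-0.523 to -0.113). The fitted value across genotypes was -0.77 ± 0.35 (edgeR adjusted p = 0.113) in a contrast where 4.55% of groups passed.

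Nearly all His-GTG fragments began at the first base of the gene. Of 1047 reads that could be placed, 1013 started at base 1, a share of 96.8% (95.5 to 97.7). The share was 97.3% (691 of 710 reads) in mutants and 95.5% (322 of 337 reads) in heterozygotes. By library it was 97.2%, 97.6% and 95.2% in mutant control, heat shock and recovery, against 89.6%, 97.0% and 95.8% in heterozygotes. The heterozygote control was the lowest, with 43 of its 48 reads from base 1.

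Another 18 reads started at base 2 and 5 reads at base 3, and 0 reads started ahead of base 1. A read that held the added guanosine would begin ahead of base 1 and, where the genome does not encode that base, would differ from the gene at its first letter. The 703 His-GTG reads of 30 to 35 nt included 0 with any base that differed from the gene, so the short reads listed for this tRNA were exact matches only. The 344 placed reads of 36 to 51 nt included 67 with a change, and 0 of them started ahead of base 1. Whether fragments with the added guanosine were sequenced cannot be read from the short reads. For the longer reads it depends on mismatch settings that are not given. Listed fragments from the 3′ side were rare. From base 39 to base 72 ran 6 reads, at 1, 1 and 0 reads in mutants and 1, 2 and 1 reads in heterozygotes. Their first base follows base 38, the last base of the anticodon loop. A read with added bases past base 72 would differ from the gene there, and whether such reads were left out of the lists was not tested. The remaining placed reads included 3 that started at base 28, within the anticodon stem.

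Of the 1013 reads from base 1, 622 ended in the anticodon loop, 267 at base 50 or 51 in the T stem, 111 at base 30 or 31 in the anticodon stem and 13 at bases 39 to 49. Their most frequent last base was 33, with 286 of the 1013 reads, followed by 50 (149 reads), 35 (121), 51 (118), 30 and 32 (86 each) and 34 (79). Base 33 is the conserved uridine next to the anticodon, and a fragment ending there lacks the anticodon. A fragment ending at base 35 holds the first 2 anticodon bases. Fragments ending at base 50 or 51 hold the whole anticodon arm and reach into the T stem, and 51 nt was the longest read listed for any tRNA. The median last base was 34, 35 and 33.5 in mutant control, heat shock and recovery and 33 in each heterozygote library.

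**Figure D2:**
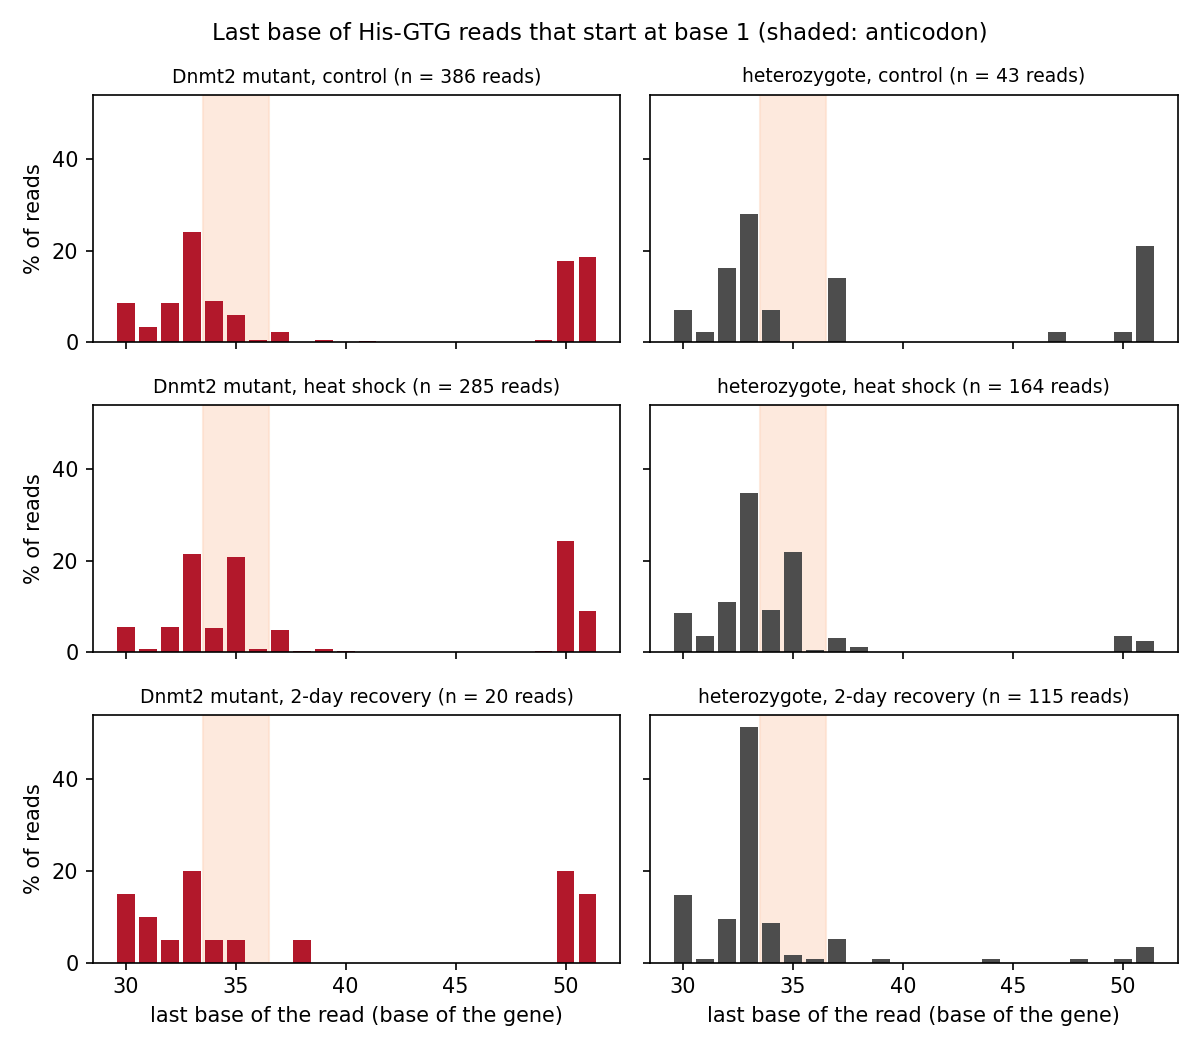
Share of His-GTG reads from base 1 (y axis, % of reads) by their last base (x axis, base of the gene) in each of the 6 libraries, mutants on the left and heterozygotes on the right, with the anticodon shaded. Bars at base 33 stand in all 6 libraries, bars at base 35 are tall after heat shock in both genotypes (20.7% and 22.0%), and bars at base 50 are tall in mutants (17.6%, 24.2% and 20%) and low in heterozygotes (2.33%, 3.66% and 0.870%).

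Reads ending inside the anticodon, at base 35, were a larger share after heat shock in both genotypes. Reads from base 1 to base 35 numbered 23, 59 and 1 in mutant control, heat shock and recovery, against 0, 36 and 2 in the heterozygote libraries. As a share of reads from base 1 they were 5.96% (4.00 to 8.78), 20.7% (16.4 to 25.8) and 5.00% (0.888 to 23.6) in mutants. In heterozygotes they were 0% (0 of 43 reads, 0 to 8.20), 22.0% (16.3 to 28.9) and 1.74% (0.478 to 6.12). The heat shock library was the highest of the 3 in each genotype.

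The difference of heat shock from control was 14.7 percentage points (Newcombe 95% interval 9.60 to 20.2) in mutants and 22.0 points (12.0 to 28.9) in heterozygotes. These intervals exclude 0 and cover counting error only, since each compares 1 library with 1 library. On the TMM scale the level of this fragment was higher after heat shock by a log2 ratio of 2.14 (1.42 to 2.90) in mutants. In heterozygotes, with 36 reads after heat shock against 0 in control, the exact 95% interval of the log2 ratio starts at 1.77. Recovery lay below heat shock by 20.2 points in heterozygotes (difference -20.2, interval -27.3 to -13.1). The mutant difference was -15.7 points with an interval that includes 0 (-22.2 to 3.40), on 20 reads in recovery.

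Single sequences of all tRNAs were tested in the same model. With the abundance minimum used for whole tRNAs, 39 sequences were tested, 0 of them from His-GTG. A lower minimum of 10 reads in 2 libraries, added after the data were seen, tested 172 sequences, 7 of them from His-GTG. With it 3.49% of sequences passed for heat shock, and the fragment from base 1 to base 35 had the value 2.65 ± 0.93 and did not pass (edgeR adjusted p = 0.144). For recovery against heat shock it had -3.53 ± 1.07 (edgeR adjusted p = 0.0870), where 2.33% of sequences passed. The fragment ending at base 33 had 0.16 ± 0.62 for heat shock in this fit. The size of the fitted values for base 35 depends on how the count of 0 in the heterozygote control is treated.

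Fragments ending just ahead of the anticodon were found in all 6 libraries. Reads ending at base 33 numbered 93, 61 and 4 in mutant control, heat shock and recovery, against 12, 57 and 59 in the heterozygotes. Their shares were 24.1%, 21.4% and 20% in mutants and 27.9%, 34.8% and 51.3% in heterozygotes. The mutant share was lower in 3 of 3 conditions, with a difference of -3.81 points (-19.1 to 8.22) in control, -13.4 (-22.1 to -4.79) after heat shock and -31.3 (-46.2 to -7.89) in recovery. The level did not follow the share. On the TMM scale the log2 ratio of mutant to heterozygote for this end was 1.14 (0.27 to 2.14) in control. It was 0.50 (-0.04 to 1.05) after heat shock and -0.92 (-2.85 to 0.51) in recovery. Heat shock moved the share by -2.69 points (-8.96 to 3.81) in mutants and 6.85 points (-9.45 to 20.3) in heterozygotes, within counting error of 0 in both.

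All reads from base 1 that end at bases 30 to 34 numbered 207, 110 and 11 in mutant control, heat shock and recovery, against 26, 110 and 98 in heterozygotes. The log2 ratio of mutant to heterozygote for this class was 1.18 (0.59 to 1.83) in control, 0.40 (0.01 to 0.80) after heat shock and -0.20 (-1.24 to 0.71) in recovery on the TMM scale. The mutants were higher in this class in control, and the recovery interval spans 0. Ends at bases 30, 32 and 34 held 5.00% to 16.3% of the reads from base 1 in every library.

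Reads ending in the T stem at base 50 were a larger share in mutants in all 3 conditions. Reads from base 1 to base 50 numbered 68, 69 and 4 in mutant control, heat shock and recovery, against 1, 6 and 1 in heterozygotes. Their shares were 17.6% (14.1 to 21.7), 24.2% (19.6 to 29.5) and 20% (8.07 to 41.6) in mutants. In heterozygotes they were 2.33% (0.412 to 12.1), 3.66% (1.69 to 7.75) and 0.870% (0.154 to 4.76). Each mutant share was above every heterozygote share. The intervals cover counting error only and are no test of the genotype difference.

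The mutant share exceeded the heterozygote share by 15.3 points (4.96 to 19.8) in control, 20.6 (14.4 to 26.2) after heat shock and 19.1 (6.58 to 40.7) in recovery. The mean share over conditions was 20.6% ± 3.34 in mutants and 2.28% ± 1.39 in heterozygotes. The ± is the SD over the 3 conditions with 1 library each, not a spread of replicates. On the TMM scale the log2 ratio of mutant to heterozygote after heat shock was 3.93 (2.73 to 5.42), and in control and recovery the heterozygotes had 1 read each. In the fit of 172 sequences this fragment had a genotype log2 fold change of 4.12 ± 0.80, in a contrast where 14.0% of sequences passed. Its exact sequence met the lower minimum through mutant control and mutant heat shock alone, with 53 and 60 reads. The heterozygotes had 1, 5 and 1 reads of it in control, heat shock and recovery. The fragment was thus in the fit because it was frequent in mutants, and its fold change is a description only. No test is given for these values, since they are part of the difference for which His-GTG was chosen, and an exact test over 3 pairs of libraries cannot go below 0.25.

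Reads ending 1 base further on did not keep this order in control. Reads from base 1 to base 51 numbered 72, 26 and 3 in mutant control, heat shock and recovery, against 9, 4 and 4 in heterozygotes, or 18.7%, 9.12% and 15.0% in mutants and 20.9%, 2.44% and 3.48% in heterozygotes. After heat shock the share was lower than in control in both genotypes, by -9.53 points (-14.6 to -4.24) in mutants and -18.5 points (-32.8 to -8.30) in heterozygotes. In the fit of single sequences the heat shock value was -1.75 ± 0.86 and did not pass (edgeR adjusted p = 0.291). The control shares of the genotypes were within counting error of each other, with a difference of -2.28 points (-17.0 to 8.11).

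Ends at base 50 thus made up 48.6%, 72.6% and 57.1% of the reads ending at 50 or 51 in mutant control, heat shock and recovery, against 10.0%, 60.0% and 20% in the heterozygotes, which rest on 10, 10 and 5 reads. Among all other tRNAs together, reads of 50 nt made up 8.80%, 8.78% and 4.51% of those of 50 or 51 nt in mutants and 7.89%, 5.66% and 6.27% in heterozygotes. Because 51 nt is the length limit, a fragment listed at 51 nt may be longer in the fly. A 51-nt read whose last base differs from the gene could also be listed in a form shortened to 50 nt, and the part of such reads in the count at base 50 was not tested.

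Together, the reads ending at base 50 or 51 were 2563, 2983 and 1290 TMM-scaled CPM in mutant control, heat shock and recovery, against 644, 237 and 118 in heterozygotes. The log2 ratio of mutant to heterozygote was 1.99 (1.07 to 3.08), 3.65 (2.71 to 4.76) and 3.44 (1.57 to 5.44) for control, heat shock and recovery. Without these reads the ratio for all other His-GTG reads was 0.94 (0.45 to 1.47), 0.71 (0.40 to 1.02) and 0.02 (-0.86 to 0.80). For all His-GTG reads it was 1.23, 1.19 and 0.51, so taking out a class with higher ratios had to lower it in each condition. With reads of 50 and 51 nt left out of every tRNA, the fitted genotype log2 fold change was 0.77 ± 0.28.

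**Figure D3:**
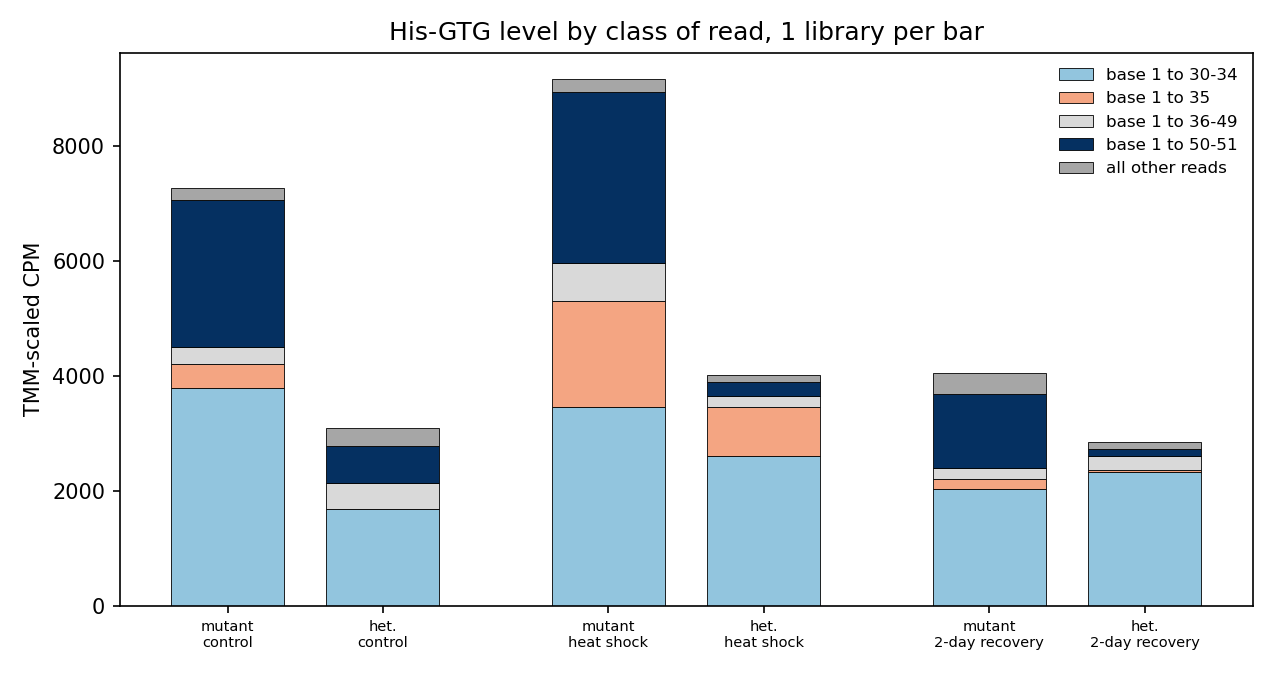
His-GTG level in TMM-scaled CPM (y axis) in each library (x axis, mutant left of heterozygote in each condition), stacked by class of read, 1 library per bar. The dark class ending at bases 50 to 51 is 2563, 2983 and 1290 in mutants and 644, 237 and 118 in heterozygotes, and the class ending at base 35 is widest in the bars after heat shock.

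The same lengths were read in the other tRNAs. Reads of 35 nt made up 5.79%, 20.2% and 4.55% of His-GTG reads in mutant control, heat shock and recovery, against 0%, 21.3% and 1.67% in heterozygotes. In all other tRNAs together the shares were 24.4%, 19.5% and 16.5% in mutants and 19.6%, 27.2% and 28.3% in heterozygotes. The sum of the other tRNAs was lower after heat shock than in control in mutants and higher in heterozygotes. Of 22 other tRNA groups with at least 300 reads, 4 had a higher share of 35 nt after heat shock in both genotypes. Reads of 50 nt made up 17.1%, 23.6% and 18.2% of His-GTG reads in mutants and 2.08%, 3.55% and 0.833% in heterozygotes. In all other tRNAs they were 0.297%, 0.358% and 0.314% in mutants and 0.294%, 0.238% and 0.299% in heterozygotes. Of the 22 groups, 0 had a higher 50-nt share in mutants in all 3 conditions. Groups with 0 reads of 50 nt in mutant recovery, such as Asp-GTC and Gly-TCC, could not meet this rule. The count of 0 therefore does not show that the other groups lack such a difference. At 51 nt, 4 of the 22 groups had a higher share in mutants in all 3 conditions. His-GTG had 18.4%, 8.90% and 13.6% at 51 nt in mutants and 20.8%, 2.37% and 3.33% in heterozygotes. The sequences that Gln-CTG and Gln-TTG have in common were among the 4, with 79.8%, 82.9% and 62.5% in mutants and 40%, 57.1% and 43.6% in heterozygotes.

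**Figure D4:**
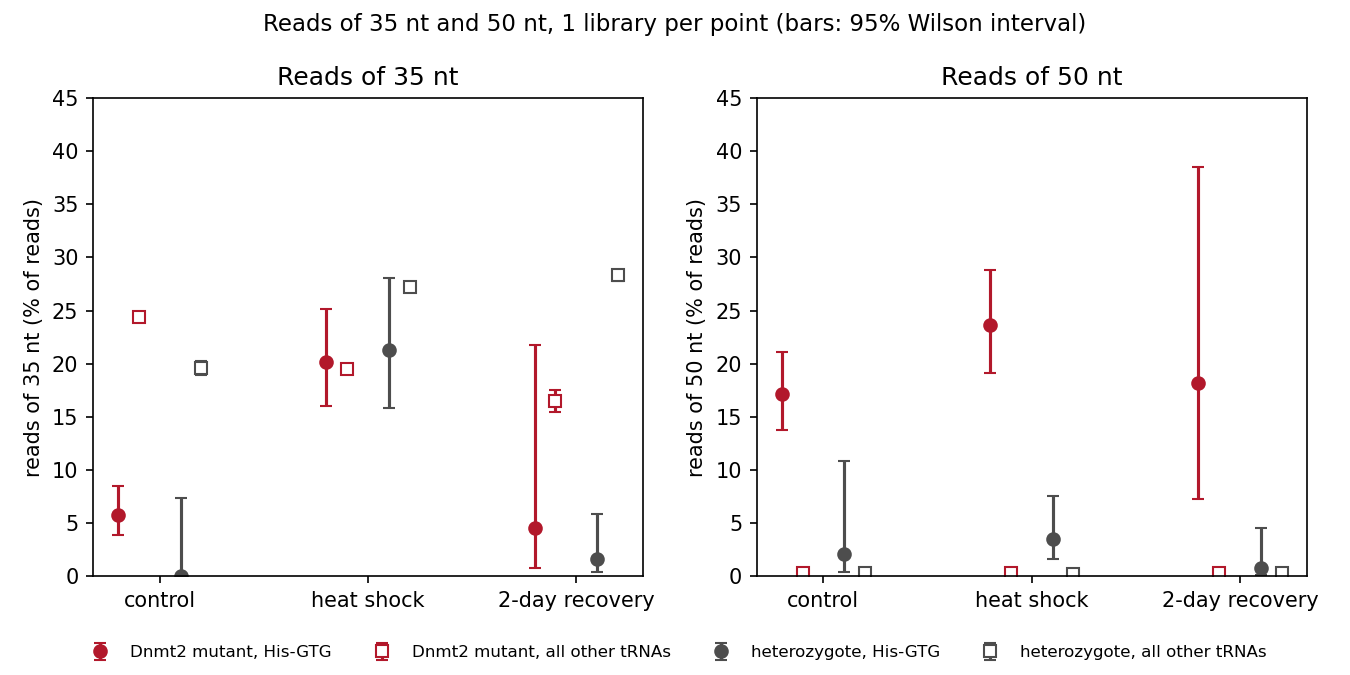
Reads of 35 nt (left) and 50 nt (right) as a percentage of reads (y axes) in control, heat shock and recovery (x axes), for His-GTG (filled circles) and all other tRNAs together (open squares), 1 library per point with 95% Wilson intervals. His-GTG reaches 20.2% and 21.3% at 35 nt after heat shock, and at 50 nt its mutant points of 17.1% to 23.6% stand above all other points.

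Among the tRNAs whose first anticodon base can become queuosine, Asp-GTC had the larger pool of fragments. Its 35-nt reads, whose start and end on the gene were not determined here, were 42.97%, 55.3% and 53.3% of its reads in mutant control, heat shock and recovery, against 45.9%, 66.7% and 41.3% in heterozygotes, so it was among the 4 with a higher share after heat shock in both. Asn-GTT had 35-nt shares of 5.33%, 4.17% and 0% in mutants and 3.13%, 6.98% and 3.8% in heterozygotes, with intervals that overlap. Asp-GTC, Asn-GTT and Tyr-GTA had 0 reads of 50 nt in every library.

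In level, 3 of these 4 tRNAs passed the minimum for the fit. For heat shock Asp-GTC was higher at 1.26 ± 0.35 (edgeR adjusted p = 0.00459) and Asn-GTT lower at -1.55 ± 0.38 (edgeR adjusted p = 0.00144), so 1 rose, 1 fell and His-GTG did not pass, where 31.8% of all 22 tested groups passed. The median of the 3 was 0.34, which is the His-GTG value itself, against -0.39 over all tested groups. The Asp-GTC call was lost without either heat shock library, without the mutant control library, with total counts and with each distinct sequence listed once (0.93 to 1.30, edgeR adjusted p from 0.0684 to 0.403). The Asn-GTT call was lost without either heat shock library (-1.15 without the mutant one and -1.91 without the heterozygote one, edgeR adjusted p = 0.437 and 0.0684), and it passed in 7 of 14 alternatives, with 5 in which Asn-GTT was not tested because it missed the minimum. For recovery 0 of the 3 passed, with a median of -0.43, again the value of His-GTG, against -0.39. For genotype the values were 1.02 for His-GTG, 0.05 for Asn-GTT and -0.80 for Asp-GTC. Of the Dnmt2 substrates, 2 of 3 were tested, and for heat shock 1 of them, Asp-GTC, passed upwards, in the contrast where 31.8% of all groups passed. Gly-GCC had -0.10 ± 0.50 (edgeR adjusted p = 0.876), and the median of the 2 was 0.58. For recovery 0 of the 2 passed, with a median of -0.21. Tyr-GTA and Val-AAC had too few reads for the fit.

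The tRNA groups whose level over the 6 libraries was most like that of His-GTG were Gly-TCC (Pearson r = 0.82), the sequences that Gln-CTG and Gln-TTG have in common (r = 0.79) and Gly-GCC (r = 0.74), out of 22 with at least 300 reads. These values describe 6 libraries that share their scaling with His-GTG. Gly-TCC also had many long reads, with 51-nt shares of 74.5%, 77.8% and 68.3% in mutants and 35.6%, 40.7% and 26.1% in heterozygotes, but its 50-nt shares were at most 1.38%. In mean level His-GTG (5073 CPM) lay between Pro-CGG (5393) and Val-CAC (4149), counts that are not scaled by length. The library values of these neighbours, 2897 to 8441 for Pro-CGG and 2396 to 6911 for Val-CAC, overlap those of His-GTG (2843 to 9168).

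The reads of His-GTG also differed in their base changes. Substitutions are written as the gene's base, the position (1 is the first base of the read), and the base read. Among reads of 36 to 51 nt, 43 of 162 (26.5%) in mutant control and 23 of 119 (19.3%) in mutant heat shock differed from the gene, against 0 of 20 in heterozygote control and 1 of 18 in heterozygote heat shock. In recovery it was 0 of 9 placed reads in mutants and 0 of 16 in heterozygotes. Another 1 read of mutant recovery could not be placed with up to 2 base changes and is not counted here. The change A24C was seen in 19 and 10 reads of mutant control and heat shock, and A7C in 12 and 4 reads. Heterozygotes held 1 read with A24C, after heat shock, and 0 with A7C.

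These changes were not limited to His-GTG. The rate of A7C was also taken over 51-nt sequences of all tRNAs with at least 20 pooled reads, His-GTG included. Reads with C were 16.2%, 15.6% and 16.4% of those with A or C there in mutant control, heat shock and recovery. In heterozygotes they were 0.238%, 0.20% and 0%. For A24C the mutant rates in this order were 15.7%, 13.01% and 13%, against 0%, 0.0648% and 0.0953% in heterozygotes. For A37C they were 5.12%, 4.52% and 6.06%, against 0%, 0.194% and 0.286%. For A29C, 7.14% in mutant control stood against 0% in each other library. The genotypes thus differed over all tRNAs in a trait tied to read position. Its bearing on genotype differences, such as at base 50, was not tested beyond the alternatives below. Among the short His-GTG reads, 0 of 420 in mutants and 0 of 283 in heterozygotes had any change. The shortest placed read with a change was 37 nt long. Whether short reads with a change were left out of the lists was not tested. Raising the counts of short reads as if changed ones had been left out, an alternative added after the data were seen, gave shares ending at base 50 of 13.4%, 19.9% and 16.3% in mutants and 2.32%, 3.65% and 0.869% in heterozygotes. The mutants remained above the heterozygotes in 3 of 3 conditions, by 14.3 points on average against 18.3 uncorrected. With reads free of any change alone, the mean difference was 17.3 points.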

How the data were processed

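The deposited values are raw read counts, given per the file headers for each sequence at each tRNA gene, and all are whole numbers. Per the submitters' processing notes Bowtie and the genome build dm3 were used, with versions, mismatch settings and trimming not given in the sources used here. Listed reads were 30 to 51 nt long.

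A sequence is listed at every gene it matches, in a shortened form where a gene differs near the read's end, so longer sequences were taken off their shortened forms and each read was counted once. Counts were summed by anticodon into 48 groups. A group entered the test where 3 or more libraries reached the CPM that 10 counts give in the smallest one, which left 22. The quasi-likelihood test of edgeR 4.0.16 was run in R 4.3.3 (TMM, genotype and condition as additive terms, Benjamini-Hochberg, threshold 0.05, 2-sided). The additive model leaves 2 residual degrees of freedom, and its spread was pooled over all groups. DESeq2 1.42.0 was an alternative. Shares have 95% Wilson intervals, differences of shares Newcombe intervals, and ratios exact conditional binomial intervals. Names came from the RefSeq gene table of another build. The scripts were tested on simulated data. The members and lists were chosen with earlier results of these data known. Named ends and sequences held at least 5% of the pooled His-GTG reads, and the tRNAs named for likeness were the 3 with the highest Pearson r.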

Additional observations from a re-analysis of the deposited data

Results flagged for a closer look

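The search covered 10 shares, each in heat shock and in recovery against control. In 9 of these comparisons the mutant and the heterozygote library moved in opposite directions. The end shares of a library have the same denominator and are not independent, so nothing is read from the count. With 1 library per group none of these differences was tested, and the values are the mutant change minus the heterozygote change. For recovery against control they were -0.27 percentage points for the share of tRNA-derived reads (-0.16 in mutants and 0.11 in heterozygotes), and -8.24 points for the share starting at base 1. For the shares of reads ending at single bases they were -27.5 points at base 33, -5.79 at base 34, -2.70 at base 35 and 3.84 at base 50. For heat shock against control they were -4.50 points at base 30, -9.54 at base 33 and -5.97 at base 34. The opposite direction of the share of tRNA-derived reads was not seen on 2 other scales: without Gly-GCC in the total, recovery and control had 0.922% and 1.41% in mutants and 0.625% and 0.678% in heterozygotes, and on the TMM scale the log2 ratios were -0.84 and -0.12, lower in both. Of the changes behind these values, the heterozygote change at base 33 in recovery, 23.4 points (6.07 to 37.7), was the one whose counting interval excludes 0. The mutant change there was -4.09 points (-16.9 to 17.9), on 20 reads. Recovery against heat shock was not searched in this way, and opposite directions occurred there too. At base 33 that change was -1.40 points (-14.4 to 20.6) in mutants and 16.5 points (4.77 to 27.8) in heterozygotes. For the share of tRNA-derived reads it was -0.349 points (-0.523 to -0.113) and 0.054 points (-0.037 to 0.151).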

How the results depend on the processing

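No paired analysis was possible because, with 1 library per group, the labels give no replicate numbers to pair by. Condition was a term of the fit, so genotypes were compared within conditions. The His-GTG log2 fold change for genotype was 0.73 with total-count scaling, and 0.74 to 1.25 with each library left out in turn. Recovery against control turned positive with total counts (0.063), and leaving out libraries gave -0.64 to 0.15, positive without the mutant control. For heat shock and for recovery against heat shock, 0 of 14 alternatives passed. Leaving Gly-GCC out of the total moved the mean difference in share from 0.232 to 0.716 points.

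The number of groups passing for genotype, 6, became 3 with no filter, 1 without 50-nt and 51-nt reads, 2 without 51-nt reads, and 1 to 9 with a library left out (1 without the mutant and 2 without the heterozygote heat shock library). For heat shock, 7 became 3 with total counts and 1 to 9 with a library left out (1 without the mutant control or a heat shock library of either genotype). For recovery against heat shock, 1 became 4 with each distinct sequence listed once, 5 with the correction of short reads for C read at A, 0 with total counts, 3 without 50-nt and 51-nt reads, 3 without 51-nt reads, and 0 to 3 with a library left out (2 without either control, 0 without the heterozygote and 3 without the mutant recovery library). The cause was not tested. The mean genotype difference at base 50, 18.3 points, was 13.3 with each distinct sequence listed once, 21.4 without 51-nt reads and 14.3 with that correction.

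Depth limits the mutant recovery library, with 22 His-GTG reads, and the heterozygote control, with 48.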
